A study of Arabidopsis thaliana with 36 samples.

Results

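The genes described here are the 100 highly expressed genes with the smallest spread over all libraries of a cold experiment on rosettes of Arabidopsis thaliana. Counts mapped with STAR were scaled to a common library total (CPM), and the level of a gene is log2(CPM + 1). Of 33602 genes in the table, 4787 had a mean level of at least 5 over the 36 libraries, and the 100 of these with the smallest standard deviation (SD) were taken. The SD of a gene over all libraries chose the members, so their small spread is a description and was not tested.

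The libraries came from 2 accessions, Col-0 and N14, in 6 conditions with 3 libraries each. Plants were sampled untreated at 28 days (C28) or at 35 days (C35), after 3 days at 4 °C begun at either age (C28P3 and C35P3), after the 28-day cold and 7 further days at 20 °C (C28P3L7), or after that lag and a second cold of 3 days (C28P3L7T3). All plants were grown at 200 µE of light and the cold was given at 90 µE, so light changed together with temperature, and plants sampled at the end of the cold were 3 days older than their controls. By these schedules, C28P3L7 plants were also older than C35 plants, and C28P3L7T3 plants older than C35P3 plants. Comparisons between these conditions were not matched for age. Each library was a pool of 5 replicate samples, with 15 rosettes in C28 and C28P3 and 4 in the other conditions, which ties pool size to condition. The 3 libraries of a group came from independent experiments per the labels. In such bulk samples, fewer cells of a type and less RNA per cell cannot be told apart.

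Genes whose transcript level changes little are used as references in quantitative PCR, where the level of any other gene is given relative to theirs. In plants the usual choices code for actin, tubulin, ubiquitin, elongation factors and glycolytic enzymes, which serve structures and processes that every cell has. A relative measure such as CPM has the same limit: it gives the share of a library that a gene takes, so its steadiness depends on what the library total is made of.

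Leaf markers were high, for rosettes as labelled. RBCS1A, the Rubisco small subunit, had a median of 23555 CPM, and the antenna gene LHCB1.3 had 26706 CPM. The flower genes AP3, PI and AG and the seed storage gene SESA1 had medians of at most 0.376 CPM, and AP3 and AG had means of 0.602 and 1.195 CPM in Col-0 and of 0.0412 and 0.251 CPM in N14. PYK10, a root beta-glucosidase, ranged from 0.668 to 138 CPM, with means of 4.77 CPM in cold and 38.7 CPM without; the part of such tissue in the results was not tested. Library totals ran from 17861514 to 31046237 counts, and the 100 members together held between 1.31% and 1.48% of a library.

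The members' SD ran from 0.0880 to 0.154 log2 units with a median of 0.136, beside a median of 0.435 over the 4787 genes. The highest library of a member exceeded its lowest by 1.28-fold to 1.80-fold. This ratio was under 1.5 for 58 of the 100 members and for 62 of the 4787 genes, and under 2 for all 100 members and for 799 of the 4787. Counting error gave a median of 7.09% of a member's variance, and at most 21.7%, for AT1G14570. The members' mean ran from 32.2 CPM to 2270 CPM, and 41 of them lay between 5 and 6 log2 units.

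**Figure D1:**
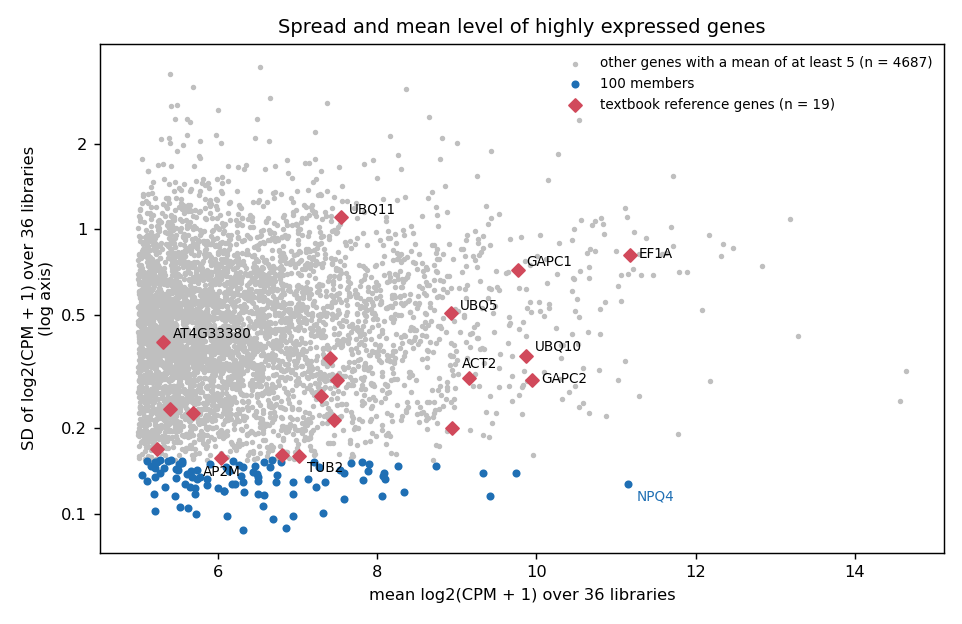
Each point is a gene with a mean level of at least 5: the horizontal axis gives the mean and the vertical log axis the SD of log2(CPM + 1) over 36 libraries. The 100 members (blue) form the lower edge from 0.0880 to 0.154, and the 19 textbook reference genes measured at this level (red diamonds) all lie above it, up to UBQ11.

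The gene with the smallest SD was AT5G08060, whose RefSeq product name is furry and whose role is not described here. It had 70.5, 79.4 and 89.2 CPM as the lowest, median and highest of the 18 libraries that ended in cold, and 68.5, 78.7 and 85.1 CPM in the 18 that did not. The 2 ranges overlapped over most of their length. AKR2B, an ankyrin-repeat protein that guides proteins to the chloroplast outer membrane, was second, with 102, 117 and 134 CPM in cold and 101, 113 and 124 CPM without cold. COS1, the lumazine synthase of riboflavin synthesis, was the third, with 89.8, 103 and 112 CPM in cold and 90.5, 102 and 118 CPM without cold. For both of these genes too, most of each range was shared between the treatments.

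NTF2A, which carries the GTPase Ran into the nucleus, had 64.9, 70.7 and 77.4 CPM in cold and 57.9, 67.0 and 72.5 CPM without. APG2, the TatC subunit of the thylakoid twin-arginine translocase, had 139, 152 and 178 CPM in cold and 148, 163 and 185 CPM without. CRL, a plastid envelope protein needed for plastid division, had 43.2, 47.9 and 53.9 CPM in cold and 40.3, 49.9 and 57.3 CPM without. All of these ranges overlapped between treatments. Also among the first 10 were AT5G04440, AT1G14570 (a UBX-domain protein) and AT5G66090, with mean levels of 52.0, 36.0 and 45.0 CPM.

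The member with the highest mean was NPQ4, which codes for PsbS, the photosystem II protein that senses lumen acidity and starts the dissipation of excess light as heat. It had 2025, 2323 and 2553 CPM in cold and 1746, 2257 and 2622 CPM without cold, so that its lowest and its highest libraries were both from plants not in cold. FBR12, a translation factor eIF5A, had 804, 905 and 1026 CPM in cold and 696, 795 and 995 CPM without. RPE, the ribulose-5-phosphate epimerase of the Calvin-Benson cycle, had 634, 685 and 753 CPM in cold and 573, 679 and 838 CPM without. RPS1, the plastid ribosomal protein S1, and ALB3, the insertase that places antenna proteins in the thylakoid membrane, followed with means of 643 and 429 CPM. Per kilobase of transcript, the order of the first 3 was unchanged, at 1762 CPM for NPQ4, 889 for FBR12 and 452 for RPE.

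**Figure D2:**
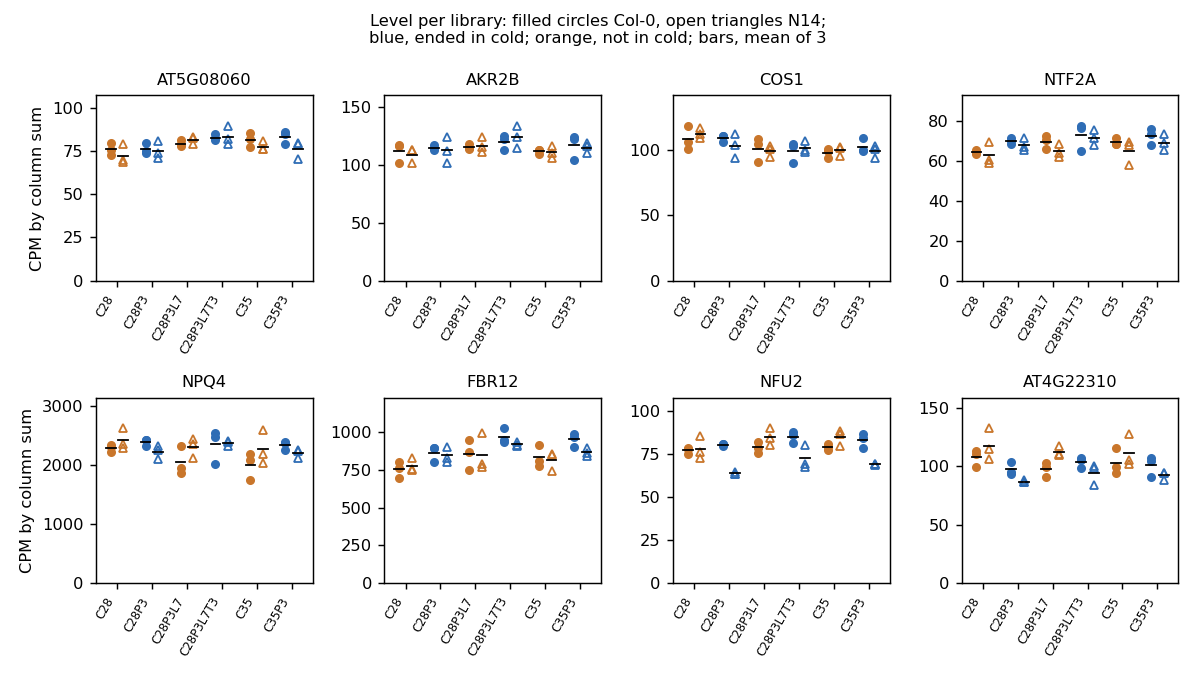
CPM by library total in every library for 8 members, by condition on the horizontal axis, with filled circles for Col-0, open triangles for N14, blue for libraries that ended in cold, orange for the rest and a bar at the mean of 3. The first 6 are steady or highly expressed members with overlapping ranges, and NFU2 and AT4G22310 show lower N14 libraries in cold.

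The cut fell where genes were close together. The last members were AT1G06650, AT3G13882 and AT4G22310, with SDs of 0.154023, 0.154048 and 0.154089, and the first genes outside were HCF136, RHC2A and LIP2, with 0.154108, 0.154209 and 0.154611.

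By library total, none of the 30 textbook reference genes looked up was a member, although 19 of them reached a mean level of 5. Members made up only 2.09% of the 4787 genes, so nothing is read from the absence of members among 19 genes. These 19 had a median SD of 0.296, below the median of 0.435 over the 4787 genes. Their ranks by SD among the 4787 genes ran from 116 for AP2M, a clathrin adaptor subunit, to 4569 for UBQ11, with a median of 1195. TUB2, a beta-tubulin, ranked 125 and YLS8 134. PP2A-1, of protein phosphatase 2A, ranked 168. PP2AA3, a scaffold subunit of protein phosphatase 2A, ranked 591, UBC9 899, GAPC2 1199, ACT2 1227, UBQ10 1739 and EF1A (AT5G60390) 4181. With TMM factors, a scaling described below, the same rule did choose textbook genes. On that scale PP2A-1 ranked 34, AP2M 43, TUB2 68 and PP2AA3 77. The absence of textbook genes from the choice thus depended on the scale. SAND, TIP41-like and UBC21 had mean levels of 4.88, 4.78 and 4.90, below the minimum, with SDs of 0.270, 0.252 and 0.293.

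ACT2, an actin, ran from 374 to 808 CPM with a median of 583, and UBQ10, a polyubiquitin, from 521 to 1375 CPM with a median of 961. EF1A, a translation elongation factor, ran from 901 to 4930 CPM with a median of 2409. Near-identical copies of this gene and of UBQ10 can take each other's reads. In edgeR's quasi-likelihood test with TMM scaling and Benjamini-Hochberg adjustment over all 20263 genes tested, EF1A rose by 1.31 ± 0.08 (log2, SE) in cold, with an adjusted p of 4.46e-15. UBQ10 fell by 0.73 ± 0.06 in cold, with an adjusted p of 1.35e-11, and ACT2 rose by 0.21 ± 0.08, with an adjusted p of 0.0113. PP2AA3, at 0.08 ± 0.04 and an adjusted p of 0.0676, did not pass. Of the 29 textbook genes tested, 12 rose and 11 fell in cold, where 37.6% of all genes rose and 40.4% fell. UBQ11 differed most between accessions among them, at -2.07 ± 0.06 in N14 against Col-0, with an adjusted p of 6.85e-22; its repeated ubiquitin units are shared with other polyubiquitin genes, so reads may be split between copies.

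The members served several compartments. By hand, and after their names and values had been seen, 63 of the 100 were placed in 7 groups by their known role, so these groups have no background and carry no test. The plastid group was the largest with 22 members, from 46.0 to 2270 CPM. It held import and insertion factors (APG2, ALB3), the protease subunits CLPP5 and CLP2, the iron-sulfur assembly protein NFU2, the terminal oxidase IM, the prenyltransferase HST of plastoquinone synthesis, and the sensor kinase CSK. CLPP5, a proteolytic subunit of the stromal Clp protease, had a mean of 322 CPM and an SD of 0.119. ABCI15 (TGD2), part of the lipid importer of the chloroplast envelope, had 49.9 CPM on average.

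The mitochondrial group had 8 members, from 66.6 to 268 CPM. It held 3 subunits of the F-type ATP synthase, ATP3 (the gamma subunit, 268 CPM), ATPQ (226 CPM) and AT5G47030 (185 CPM). GAMMA CAL1, a carbonic anhydrase-like part of complex I, and AT3G03100, another complex I subunit, had 66.6 and 68.8 CPM. LIP1, the lipoic acid synthase, and PRXIIF, a peroxiredoxin, completed this group together with AT4G22310, of the family that holds mitochondrial pyruvate carriers.

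Membrane traffic, the vacuole and the endoplasmic reticulum had 10 members. These included ARF1A1C and ARFA1F, ARF GTPases that recruit vesicle coats, and ARF3, of the wider family of ARF and ARF-like GTPases. Others were the ARF regulator AGD8, the SNARE YKT61, and the V-ATPase subunits DET3 (205 CPM) and AT3G28710 (95.0 CPM). The V-ATPase is the pump that acidifies the vacuole. Some ARF genes are close in sequence, and how reads were shared between such genes was not tested. By library total, the N14 minus Col-0 difference of ARF3 was -0.03 log2 units in the STAR table and -0.29 in the BWA table, and ARF3 was not chosen from every table, whereas ARF1A1C and ARFA1F were.

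Nuclear transport, RNA handling and translation had 11 members, among them RAN3, NTF2A, the RNA-binding proteins UBP1A and RBP45B, the splicing factors SR34a and ATU2AF35A, and CSP3. CSP3, a cold shock domain protein that binds RNA, had 31.5, 36.6 and 43.9 CPM in cold and 29.4, 36.1 and 40.9 CPM without cold. The ubiquitin and proteasome group had 5 members, including RAD23D, which carries ubiquitinated proteins to the proteasome, the core subunit PBC1 and the conjugating enzyme UBC27. Sterol and glycerolipid synthesis had 3, CYP51G1 (sterol demethylase), DWF5 (sterol reductase) and GPAT9, which starts glycerolipid synthesis. Signalling had 4, among them AGB1, the G protein beta subunit, and the kinase SNRK2.4. The remaining 37 were not placed.

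Families were named by the same words in the RefSeq product names. By the rule, every other gene of a family with a mean level of at least 5 varies more than the members. The values below are therefore a description. Of 61 photosystem and light-harvesting genes with a mean level of 5 or more, NPQ4 was the only member; their median SD was 0.771, and the widest was 3.71. HCF136, an assembly factor of photosystem II, was the next steadiest of them and the first gene outside the cut. Of 12 Clp protease genes 2 were members, and their median SD was 0.271. Of 12 F-type ATP synthase genes, plastid subunits included, 3 were members, with a family median of 0.359 and the beta subunit gene AT5G08690 at 0.633. Of 14 V-ATPase genes, 39 genes with thioredoxin in the product name and 9 fibrillins, 2 each were members, with family medians of 0.301, 0.332 and 0.234. The families were chosen after the members were known.

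**Figure D3:**
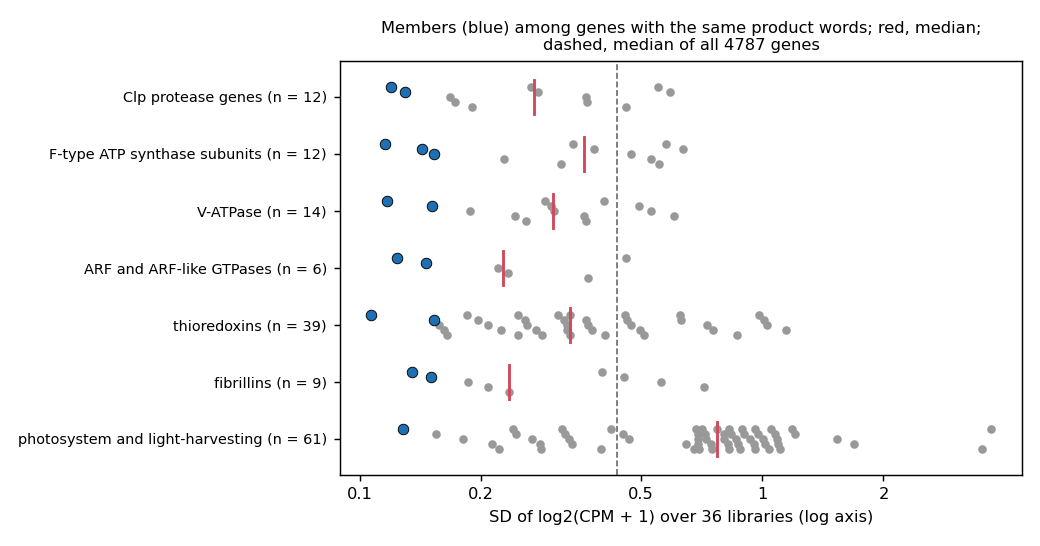
SD of log2(CPM + 1) over 36 libraries (log axis) for every gene with a mean level of at least 5 in 7 families; blue points are members, grey points other genes, red marks the family median and the dashed line the median of all 4787 genes. NPQ4, at 0.128, is the only member among the photosystem and light-harvesting genes, whose median is 0.771. HCF136, just outside the cut, follows at 0.154. ARF1A1C, which has another product name, is not among the ARF genes.

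Functional classes were made from words in RefSeq product names, and some of them are given here. Members made up 2.09% of all 4787 genes. Of 229 ribosomal protein genes 2 were members (RPS1 and AT3G13882, 0.873%) and of 79 chaperones none. Of 39 proteasome genes 1 was a member (2.56%), and of 35 small GTPases and their regulators 3 (8.57%). No test was run, and nothing is read from these counts. The words miss genes: the respiratory chain class of 41 genes held no member, without the complex I subunits GAMMA CAL1 and AT3G03100. In the reference gene models, 3 of the 100 members had a single exon (CSP3, AT1G12310 and AT5G58020), beside 9.02% of all 4787 genes, and the median member had 6 exons and 900 coding bases, beside 5 exons and 1128 coding bases. None was on an organelle genome, where 23 of the 4787 lay. The chromosomes of the nucleus held from 10 members (chromosome 4) to 29 (chromosome 1), where they held 15.8% and 25.1% of all 4787 genes.

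The sum of squares of each gene was divided into accession, cold or no cold, the other differences between conditions, accession by condition, the replicate number and a residual. These parts differ in their degrees of freedom (independent differences), with most in the residual and fewest in cold and in accession. Neither the raw shares nor the counts of largest sources below are therefore comparable between parts. The residual had a median share of 36.7%, and up to 72.6%. The other medians were 15.3% for the other differences between conditions, 8.79% for cold, 8.74% for the replicate number, 8.31% for accession by condition and 3.34% for accession. The largest source other than the residual was cold for 24 members, the other conditions for 34, the replicate number for 20, accession for 13 and accession by condition for 9. Over all 4787 genes cold was the largest for 74.1% and the replicate number for 2.53%. The rule took genes with a small SD over the same libraries, so a small share from cold was built into the choice and nothing is read from this contrast. RAD23D had the largest share from cold, 68.8%, with 103, 115 and 133 CPM in cold and 90.8, 98.4 and 110 CPM without. AT2G42130, of the fibrillin family of plastid lipid-associated proteins, had the largest share from accession, 60.0%, with 74.8, 82.6 and 97.8 CPM in Col-0 and 88.4, 96.3 and 105 CPM in N14. PEX22, a peroxisome biogenesis protein, had the largest share from the replicate number, 55.7%. These ranges overlapped even for the genes with the largest shares.

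**Figure D4:**
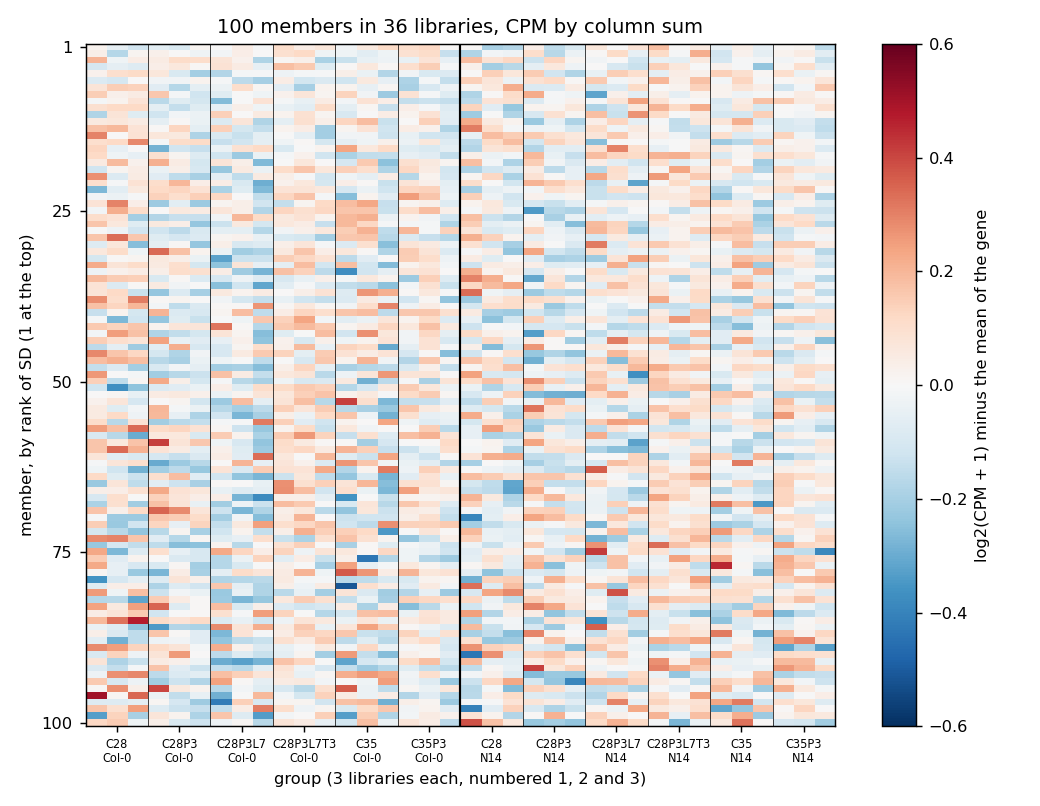
Level of each of the 100 members (rows, smallest SD at the top) in each of 36 libraries (columns, by accession and condition), as log2(CPM + 1) minus the mean of the gene, in colour from -0.6 to 0.6. Deviations had a median size of 0.0902, and 2 of them exceeded 0.5, the largest being -0.51 for AT1G74730 in a C35 Col-0 library.

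Whether the members were level between cold and no cold depended on the scale. By library total, the members' cold minus no cold difference had a median of 0.02 log2 units, with 55 higher and 45 lower, whereas the median over all 4787 genes was 0.34. With TMM factors, which scale libraries by the bulk of genes that differ least, the members' median was -0.15 with 94 lower, and with DESeq2 size factors it was -0.20 with 98 lower; the medians over the 4787 genes were then 0.17 and 0.12. The median member was thus level between cold and no cold on the library-total scale by which the members were chosen, and lower in cold on the other scales. TMM factors had a median of 1.07 in the 18 cold libraries and of 0.947 in the others. Beside this, the 92 genes with a mean level of 10 or more held 16.3% to 27.5% of the counts in cold libraries and 32.2% to 37.7% in the others, without overlap. The part of these abundant genes in the difference between scales was not tested.

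The median over members of the deviation from each gene's mean ran from -0.08 to 0.06 log2 units over the libraries by library total, less than the SD between members within a library, 0.0851 to 0.169. With TMM factors it lay between -0.22 and -0.12 in the 6 C28P3 libraries, below every other library, between -0.10 and 0.0043 in C35P3 and between -0.07 and 0.05 in C28P3L7T3. The libraries without cold ran from -0.05 to 0.22 on that scale and overlapped with those of C35P3 and C28P3L7T3.

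**Figure D5:**
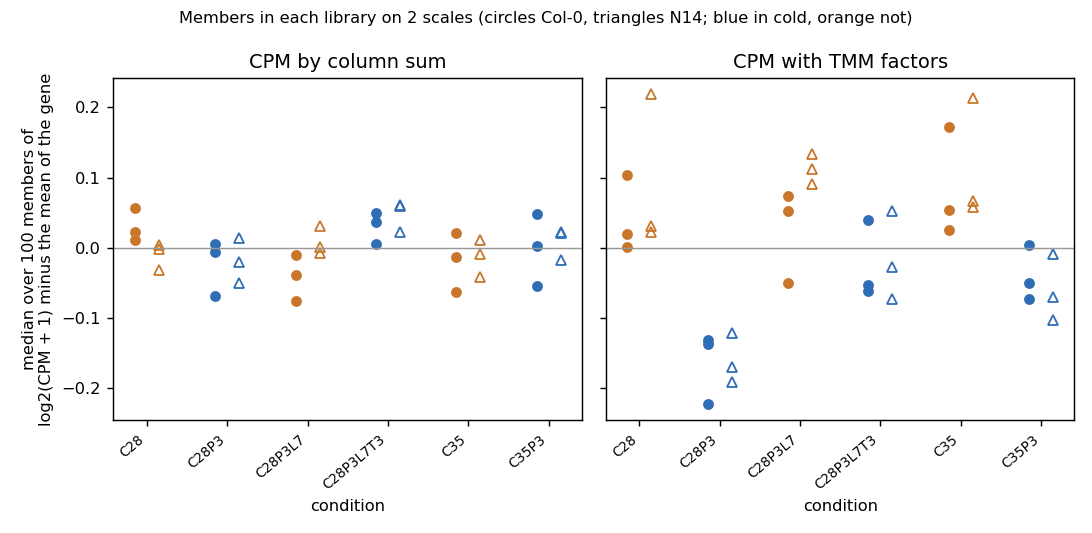
Median over the 100 members of log2(CPM + 1) minus the mean of the gene, for each library by condition (circles Col-0, triangles N14, blue in cold, orange not). By library total (left) cold and other libraries overlap around 0, and with TMM factors (right) the C28P3 libraries lie from -0.22 to -0.12.

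In edgeR's quasi-likelihood test on all 36 libraries with TMM scaling, 80 of the 100 members were called in cold against no cold at an adjusted p under 0.05, all of them lower, where 78% of all 20263 genes tested were called, 37.6% higher and 40.4% lower. Without a scaling factor 42 were called, 22 higher and 20 lower. The rule used these same libraries, so nothing is read from these counts or from those that follow. For most counts under another setting, the share of all genes called at that setting is not set beside them. Such counts do not tell a change in the members from a change over all genes. The members' estimates ran from -0.40 to 0.03 log2 units with a median of -0.18, beside a median of -0.04 over all genes tested, and 12 of the 80 were lower by at least 1.25-fold.

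The members with the largest estimates in cold were THX, the plastid thioredoxin x, at -0.40 ± 0.05 (log2, SE), AGD8 at -0.39 ± 0.04, AT4G22310 at -0.38 ± 0.05, AT2G44870 at -0.38 ± 0.05 and AT3G12290 at -0.36 ± 0.04. THX had 122, 139 and 157 CPM in cold and 135, 157 and 179 CPM without, so its ranges overlapped by library total. RAD23D, PBC1 and UBC27 had estimates above 0, at 0.03, 0.02 and 0.0013, and none of these was called. Of the 5 members placed in the ubiquitin and proteasome group, 2 were called lower, among them AT1G14570 at -0.15 ± 0.04. Called lower in the other groups were 18 of 22 plastid, 4 of 8 mitochondrial, 8 of 10 membrane traffic and 8 of 11 nuclear and RNA members. For sterol and glycerolipid synthesis it was 2 of 3, and for signalling 3 of 4. Over all genes tested 40.4% were called lower. The groups were made after the values were seen, so nothing is read from these counts. NPQ4, FBR12 and RPE stood at -0.14 ± 0.05, -0.05 ± 0.05 and -0.18 ± 0.04.

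Between accessions, 23 members were called, 20 higher and 3 lower in N14, where 43.5% of all genes were called, 23.2% higher and 20.3% lower. Without a scaling factor 21 were called, 13 higher and 8 lower. Their TMM-scaled estimates ran from -0.17 to 0.24. The largest were AT2G42130 at 0.24 ± 0.04, GDI2 at 0.22 ± 0.03, ARFA1F at 0.20 ± 0.04, HST (homogentisate prenyltransferase) at 0.20 ± 0.05 and CLP2 at 0.19 ± 0.04. GDI2 had 94.2, 101 and 124 CPM in Col-0 and 98.8, 114 and 146 CPM in N14, so the accessions overlapped. The lowest estimate belonged to AT1G71500, a Rieske-type thylakoid protein, with 243, 294 and 343 CPM in Col-0 and 230, 256 and 273 CPM in N14. Without replicate number 3 the count of members called was 10, and without number 2 it was 13.

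No member was called by edgeR between the end of the lag and the 35-day control, where 0% of all genes were; 2 members had an unadjusted p under 0.05, and DESeq2 called none. Between the second cold and a first cold at 35 days, edgeR called no member where it called 2.09% of all genes, with no member at an unadjusted p under 0.05 and none called by DESeq2. Between the 35-day and 28-day controls, edgeR called no member where 7.76% of all genes were called; 5 members had an unadjusted p under 0.05 and DESeq2 called 1. The estimates in these comparisons ran from -0.20 to 0.10, from -0.14 to 0.15 and from -0.15 to 0.25 log2 units.

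In the comparison of the cold response of N14 with that of Col-0, 4 members were called, all with a lower response in N14, where 6.04% of all genes were called and 4.05% in that direction. They are named after their values were seen. NFU2, which assembles iron-sulfur clusters in the chloroplast, had the largest estimate, -0.45 ± 0.08. Its 9 cold libraries of N14 had 63.2, 68.6 and 80.3 CPM as lowest, median and highest, and the 9 without cold 72.5, 84.4 and 89.7 CPM. In Col-0 it had 78.2, 81.3 and 87.5 CPM in cold and 75.1, 78.2 and 81.9 CPM without. In N14 the cold libraries lay mostly below the others, and in Col-0 the ranges overlapped.

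AT4G22310 had an estimate of -0.40 ± 0.10, with 83.8, 88.1 and 101 CPM in the cold libraries of N14 and 102, 110 and 132 CPM in those without cold, which did not overlap. In Col-0 it had 90.8, 104 and 107 CPM in cold and 90.4, 99.6 and 115 CPM without. PRXIIF stood at -0.35 ± 0.09 and CLP2 at -0.31 ± 0.08. This count was 2 without a scaling factor, 1 without a filter on low counts, 8 without C28P3L7 Col-0 replicate 1 and 2 without C28P3L7T3 Col-0 replicate 3. Without replicate number 1, 2 or 3 in every group it was 1, 0 and 1, where 3%, 1.12% and 2.33% of all genes were called.

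The same measure was followed in libraries that had no part in the choice. The rule was applied to the 24 libraries of 2 replicate numbers, and the SD of the 100 genes chosen was taken in the 12 libraries of the number left out. With number 1 left out, the chosen genes had a median SD of 0.154 there, beside 0.466 over all genes with a mean of 5 or more. With number 2 left out, these values were 0.125 and 0.445, and with number 3 left out 0.133 and 0.390. In the lowest 10% of the SDs over the left-out libraries lay 84, 91 and 89 of the 100 chosen genes, and none lay above the median. The gene that placed worst was AT4G25030, at percentile 35.2 with number 1 left out. The 3 choices shared 77, 86 and 76 genes with the members.

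Which genes make up the lowest 100 depended more on scaling than on the counting tool. In the tables made with 6 other tools, the same rule shared between 88 (BWA) and 93 (CLC and kallisto) genes with the members, and 83 members were chosen from every table. With TMM factors 41 members were chosen, with DESeq2 size factors 24, and these 24 were all among the 41. The 24 included AKR2B, NTF2A, AT1G14570, RPE, CLPP5, CSP3, CYP51G1, GPAT9, RAD23D and AGB1. The ubiquitin and proteasome group kept 4 of its 5 members, the mitochondrial group 4 of 8 and the plastid group 3 of 22. Nuclear transport, RNA and translation kept 5 of 11, sterol and glycerolipid synthesis 2 of 3, signalling 2 of 4 and membrane traffic 1 of 10. Of the 37 members not placed, 3 were kept. The groups were made by hand after the values were seen, and no difference between them was tested. With TMM factors AKR2B had an SD of 0.113 and ranked 9, RAD23D ranked 2 with 0.0926, AT5G08060 ranked 74 with 0.145, and THX ranked 686 with 0.237. From the cold libraries alone the rule shared 17 genes with the members, and from those without cold 36.

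Ratios between members do not depend on how a library is scaled. The mean SD of a member's log2 ratio to the other members ran from 0.150 for AKR2B to 0.205 for FIB4, a fibrillin, with a median of 0.182. AT5G08060 had 0.152. AKR2B and AT5G08060 were thus low by both measures, but the members were chosen on SDs that these ratios share.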

How the data were processed

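RNA from rosettes was sequenced with polyA enrichment and a directional kit, per the labels' protocols. The authors deposited 7 tables over the same 36 libraries: raw counts per gene from STAR, BWA, TopHat and CLC, and expected counts from kallisto, RSEM and Salmon, which were rounded to whole numbers for testing. The submitters' processing notes name the TAIR10 build, STAR 2.5.2a, BWA 0.7.13, TopHat2 2.1.1, kallisto 0.42.5, RSEM 1.2.30, Salmon 0.6.0, SAMtools 1.3 and HTSeq 0.7.2; the use of strand in counting is not stated in the labels or headers.

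From the STAR counts, CPM by library total and log2(CPM + 1), with a pseudocount of 1, gave the members. The members and all gene lists were chosen with earlier results of these data known. Named genes were the 10 members with the smallest SD, the 5 with the highest mean, 3 on each side of the cut, the 5 with the largest estimates in cold and in accession, and 9 textbook references; members named for their role, family, largest share of variance or place in another count were picked after their values were seen. Tests used edgeR 4.0.16 under R 4.3.3, with filterByExpr, TMM factors, 12 group means and quasi-likelihood F tests of 6 contrasts, adjusted by Benjamini-Hochberg over 20263 genes and called under 0.05. SEs are the estimate over the square root of F. The code was tested on simulated data.

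Over 36 replicate pairs the chi-square per gene was at least 8.2, above counting noise, so each library counted once. P-values measure the spread between libraries, each a pool. Gene names and models came from RefSeq for assembly TAIR10.1 by identifier. It named all 100 members and gave models for 4747 of the 4787 genes; no coordinates are given. The results of 1 member are not reported here.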

Additional observations from a re-analysis of the deposited data

Results flagged for a closer look

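By edgeR's interaction test with Benjamini-Hochberg adjustment over all genes, 4 members were called, with a lower cold response in N14 than in Col-0. Of all genes tested, 6.04% were called, and 4.05% in that direction. The rule that chose the members used the same libraries. Nothing is therefore read from the count of members called. The cold response of N14 minus that of Col-0 was -0.45 log2 units for NFU2, -0.40 for AT4G22310, -0.35 for PRXIIF and -0.31 for CLP2. On the TMM scale, NFU2 differed between cold and no cold by -0.06 in Col-0 and by -0.47 in N14, and PRXIIF by 0.03 and -0.27. By library total, NFU2 differed by 0.08 in Col-0 and by -0.27 in N14, and CLP2 by 0.12 and -0.08. With 1 library left out, 2 to 8 members were called in this comparison, and without replicate number 1, 2 or 3 in every group 1, 0 and 1 were called.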

How the results depend on the processing

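Shared with the 100 members were 59 genes at a mean level of at least 6, 60 by median absolute deviation, 58 from Col-0 libraries and 61 from N14 libraries, beside the 41 with TMM-scaled CPM and 24 with DESeq2 size factors. The choices from cold libraries (17) and from libraries without cold (36) were added after the data were seen. Leaving out 1 library shared 88 to 98, and 1 replicate number 76 to 86. In the left-out replicate numbers, other means or TMM left 78 to 96 of 100 in the lowest 10% by SD. Leaving out 1 library or 1 replicate number gave 54 to 81 members called in cold, 10 to 25 between accessions, 0 to 3 between controls and 0 to 8 in the accession difference of the cold response; the 3 called between controls without C28 N14 replicate 1 were the most. Without a scaling factor 42 members were called in cold, 21 between accessions (13 higher and 8 lower in N14) and 2 in that difference, without a filter 1 in that difference, and DESeq2 called 1 member between controls. The shares of all genes called under these settings are not set beside these counts. A change in the members therefore cannot be told from a change over all genes. The cause of these changes was not tested.

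Without a scaling factor, 11 named members called lower in cold had estimates above 0: AKR2B 0.057, ARFA1F 0.071, AT1G14570 0.044, AT2G42130 0.081, AT5G04440 0.023, AT5G08060 0.025, AT5G66090 0.044, CLP2 0.016, NPQ4 0.061, NTF2A 0.096 and RPE 0.018. Of all 2484 re-estimates for 27 named members, 2452 moved by less than the SD within groups without such a reversal. Most of the 2484 were fits with 1 library left out, so this total says little about scaling. Without a scaling factor, 16 further values moved by at least that SD, beside the 11 reversed. With RSEM counts 4 values moved that far, and without replicate number 3 it was 1.

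The labels do not say that equal replicate numbers mark one experiment. Deviations of same-numbered libraries correlated over 0.1 in 38 of 54 pairs (range -0.36 to 0.65), and 30 of 36 libraries correlated best with their own number. With the replicate number as a block, 80 members were called in cold, 23 between accessions and 5 in the accession difference of the cold response, and none in the other comparisons. The lowest count of a member in a library was 534. Counting error gave a median of 7.09% and at most 21.7% of a member's variance, beside a median of 0.583% over the 4787 genes.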
